A study of Mus musculus with 8 samples.

Results

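The genes described here are the kallikreins and other trypsin-like serine proteases of the mouse, taken by name from a table of read counts of a β-cell line made to express Klf4. All genes whose symbol begins with Klk, Prss or Tmprss followed by a digit were taken, together with St14 (matriptase) and Hpn (hepsin), and pseudogenes with names ending in -ps were left out. This rule gave 85 of the 55536 genes in the table, of which 84 were annotated as protein-coding. It goes by name, so not every gene need encode a trypsin-like protease. The genes were 12 kallikreins from Klk4 to Klk15, 14 glandular kallikreins (Klk1 and the Klk1b genes), 3 pancreatic trypsinogens (Prss1, Prss2 and Prss3) and 37 other Prss genes. The 37 include the antisense gene Prss23os, which is not protein-coding. The rest were proteases anchored in the cell membrane, with 4 genes of the matriptase subfamily, 7 of the hepsin subfamily, 7 Tmprss11 genes and Tmprss12.

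Serine proteases of the trypsin type are mostly made as inactive precursors, are activated when another protease cuts them, and then cut proteins after arginine or lysine. In the outer layers of skin, secreted kallikreins form an activation cascade that cuts the adhesion proteins between dead cells so that these can be shed, and matriptase at the cell surface activates other proteases and growth factor precursors in many epithelia. Trypsinogens are products of the exocrine pancreas, while the glandular kallikreins are known from salivary gland, kidney and pancreas. Klf4 is a zinc-finger transcription factor, known in skin for its part in making the epidermal barrier, whose family binds GC-rich and CACCC sequences.

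RNA was measured in MIN6, an insulin-producing β-cell line from a mouse tumour, labelled as wild-type in genotype. Transfection lasted 48 h and used the lipid reagent Lipofectamine 3000, with the empty vector pcDNA 3 in the control group and pGloMyc-Klf4 in the other, and polyadenylated RNA was sequenced from 4 libraries of each group. Each of 2 batches named in the labels held 2 libraries of both groups, with replicates 1 and 2 in batch 1 and replicates 3 and 4 in batch 2. By name the plasmids differ in backbone, so that backbone and Klf4 cannot be told apart, and the age or passage of the cells was not given in the sources used here. The series calls the libraries biological replicates of 1 line, so p-values measure the spread between transfections of MIN6. The extraction label speaks of islets, while all other labels name MIN6.

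The promoters of 5 kallikreins of 1 gene cluster are printed. Klk14, Klk13, Klk11 and Klk10, at 1 end of it, were among the genes that rose, and Klk15, farther along, had no counts in any library. Each is the 250 bases before a start that RefSeq gives on GRCm38.p6, on the + strand of chromosome 7, written 5′ to 3′. Capitals mark CACCC, or GGGTG, which is CACCC on the other strand. The windows are chr7:43690168-43690417 for Klk14, chr7:43712317-43712566 for Klk13, chr7:43774367-43774616 for Klk11, chr7:43780804-43781053 for Klk10 and chr7:43931425-43931674 for Klk15.
Klk14: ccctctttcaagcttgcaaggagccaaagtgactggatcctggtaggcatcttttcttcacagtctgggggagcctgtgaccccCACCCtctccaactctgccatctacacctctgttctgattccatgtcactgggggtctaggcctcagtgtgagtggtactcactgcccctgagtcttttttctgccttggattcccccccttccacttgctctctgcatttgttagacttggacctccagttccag
Klk13: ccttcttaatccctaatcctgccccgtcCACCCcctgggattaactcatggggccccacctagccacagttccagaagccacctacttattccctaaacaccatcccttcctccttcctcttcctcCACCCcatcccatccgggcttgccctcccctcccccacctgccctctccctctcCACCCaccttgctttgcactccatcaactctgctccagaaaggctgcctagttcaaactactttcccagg
Klk11: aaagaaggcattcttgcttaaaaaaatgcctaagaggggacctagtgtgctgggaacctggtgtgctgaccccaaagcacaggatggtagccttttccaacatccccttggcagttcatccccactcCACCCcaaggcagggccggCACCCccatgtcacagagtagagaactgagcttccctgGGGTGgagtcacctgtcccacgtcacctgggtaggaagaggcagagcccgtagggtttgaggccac
Klk10: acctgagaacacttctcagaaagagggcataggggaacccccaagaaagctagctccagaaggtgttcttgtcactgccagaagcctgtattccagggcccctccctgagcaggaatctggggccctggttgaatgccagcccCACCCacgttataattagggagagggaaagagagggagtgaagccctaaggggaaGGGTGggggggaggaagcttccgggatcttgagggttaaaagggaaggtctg
Klk15: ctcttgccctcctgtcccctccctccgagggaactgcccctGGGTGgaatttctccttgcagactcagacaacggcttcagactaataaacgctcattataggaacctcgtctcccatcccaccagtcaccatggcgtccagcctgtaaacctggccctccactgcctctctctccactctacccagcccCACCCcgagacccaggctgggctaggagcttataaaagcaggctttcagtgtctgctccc
All 5 printed windows hold the motif, that of Klk15 included. RefSeq gives Klk11 another start farther along the gene, whose window (chr7:43776079-43776378) holds no CACCC on either strand and is not printed. Counted back from the start, the first base of each match lay 166 bases away in Klk14, 222, 124 and 70 in Klk13, 123, 104 and 66 in Klk11, 107 and 52 in Klk10, and 209 and 60 in Klk15. Over windows that also take in the first 50 bases after the start, CACCC on either strand was present in 57.5% of 32851 mouse promoter windows and in 70% of the 80 windows of the 68 members that had an entry. The longer motif CCNCACCC, which contains CACCC, was present on either strand in 16.6% of all windows and in 25% of the members' windows. The 14 glandular kallikreins, none of which passed the filter on low counts, held CACCC in 14 of 14 windows and CCNCACCC in 7 of 14. Among the 14 windows of Klk4 to Klk15, 10 held CACCC and 5 held CCNCACCC, and the windows of Klk8 and Klk4 held no CACCC. The 13 windows of 11 members that rose held CACCC in 11 and CCNCACCC in 5. These matches describe the letters only, and windows of a gene with several starts share bases.

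Total counts per library ranged from 45417853 to 52731176. Klf4 itself stood at 40.1 ± 3.11 CPM (read counts scaled by library depth) in control libraries and at 5040 ± 567 CPM in Klf4-transfected libraries (SD, n = 4), and reads of the plasmid and of the endogenous gene were not separated. The β-cell label was checked with 10 β-cell markers, all tested, whose summed level was 31577 to 39570 CPM in control and 29517 to 39871 CPM in Klf4-transfected libraries. Of these markers 5 fell and none rose. Among genes whose 4 control libraries all passed the filter on low counts, as for these 10, 17.4% fell and 18.1% rose. A similar sum thus does not mean that each marker was unchanged. Of 10 acinar markers none passed the filter on low counts, Amy2a2 and Cpb1 had no counts, and their sum was 0.311 to 0.534 CPM in control and 0.641 to 1.03 CPM in Klf4-transfected libraries. In bulk RNA, a change in the number of cells that express a gene and a change in RNA per cell cannot be told apart.

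Most genes of this protease group had few or no reads in MIN6 cells with the empty vector, and more of them were detected with Klf4. A control library had counts for 24 to 31 of the 85 genes and a Klf4-transfected library for 44 to 48. Over all genes of the table these numbers were 24509 to 25446 and 26414 to 27216. No count was found in any library for 18 members, and another 25 had counts with Klf4 but none in the 4 control libraries, as did 3796 of all 55536 genes. Many of the 25 had very few counts, such as Prss21 with 1 and Tmprss13 with 4, all in 1 library. Other members had control counts and none with Klf4, namely Prss33 (6 counts), Tmprss11g and Klk1b3 (3 each), and Tmprss11b and Tmprss11e (2 each). Only 20 members passed the filter on low counts, at about 0.204 CPM in 4 libraries, and entered the test, which was edgeR's quasi-likelihood test with a batch term and Benjamini-Hochberg adjustment over 18266 genes. Of these 20, 13 rose with Klf4, none fell and 7 did not pass an adjusted p of 0.05 (at an unadjusted p under 0.05, 14 were higher and none lower, and DESeq2 and limma-voom also gave 13 and none). Over all tested genes 21.1% were called higher and 15.5% lower.

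That count depends on the filter, since a gene that is silent in control cells can enter the test only if it is high with Klf4. Of the 553 tested genes with no control library past the filter, 99.3% were called higher. Of the 20 tested members 6 were of this kind, namely Klk10 to Klk14 and Prss32. Of the 83 tested genes with no control counts at all, 100% were called higher, Klk10, Klk11, Klk12 and Klk13 among them. The 10 members whose 4 control libraries all passed the filter did not need Klf4 to enter the test. Of these, 4 rose (Hpn, Tmprss4, Tmprss9 and Prss35), none fell and 6 were not called, beside 18.1% higher and 17.4% lower among the 16203 genes of that kind. The median log2 fold change of those 10 members was 0.26, against -0.03 over the same kind of genes, and that of the 20 tested members was 1.03, against -0.01 over all tested genes. In 13 of the 20 tested members, the called ones, all Klf4-transfected libraries lay above all control libraries, beside 17.2% of all tested genes, and 6 of the 20 had entered through the Klf4-transfected libraries alone.

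**Figure D1:**
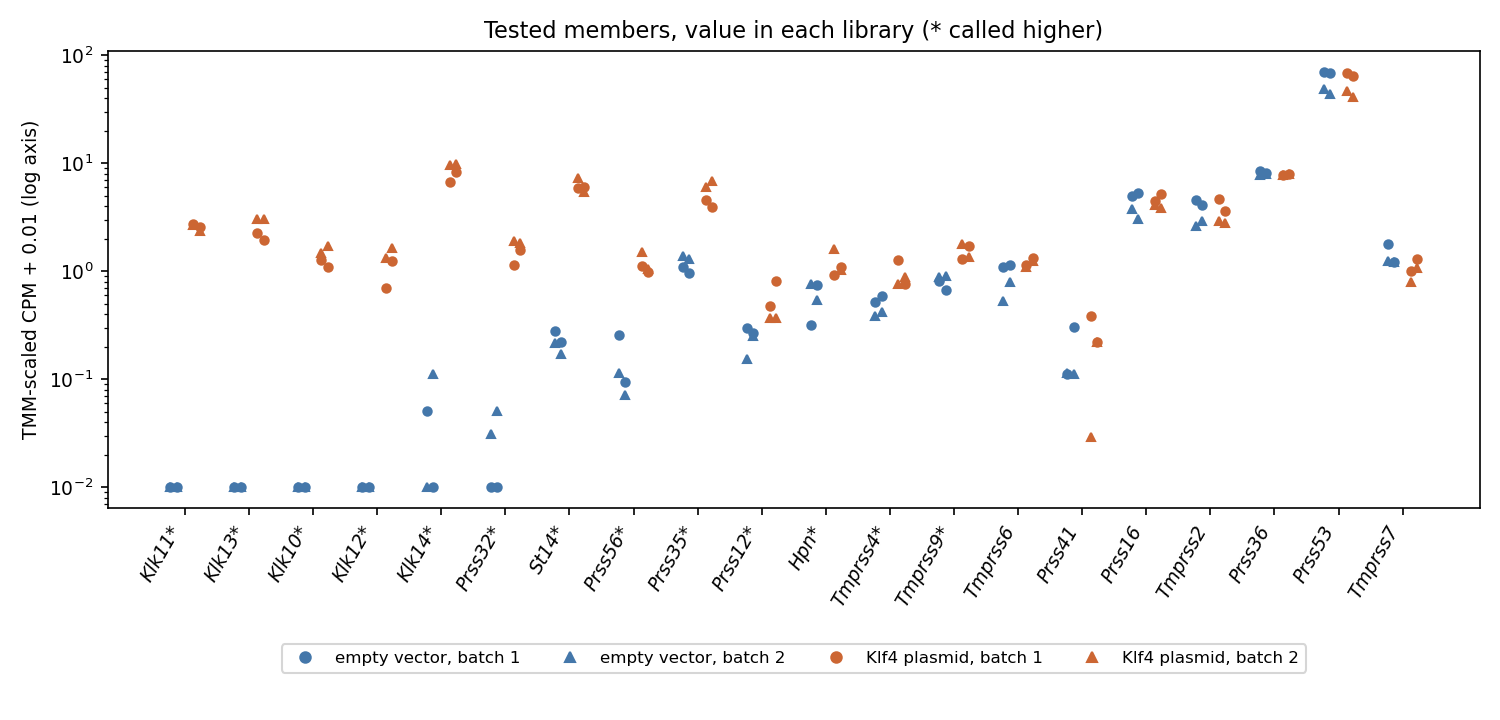
Level of each of the 20 tested members in each library, as scaled CPM plus 0.01 on a log axis, with colour for the plasmid and symbol shape for the batch. Asterisks mark the 13 genes called higher, and the 4 kallikreins without control counts stand on the lower edge in every control library.

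The kallikreins Klk10 to Klk14 had few or no reads in control cells and were counted in every Klf4-transfected library. They went from a summed 0, 2, 5 and 0 counts in control replicates 1 to 4 to 785, 615, 977 and 959 counts in Klf4-transfected replicates 1 to 4. They lie next to each other on chromosome 7 (GRCm38), where the 94.99 kb from the start of Klk14 to the end of Klk10 open a locus of 26 members that spans 539.2 kb, from 43690418 to 44229618. All 5 of these genes passed the filter through the Klf4-transfected libraries alone and all 5 were called higher.

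Klk14, a trypsin-like kallikrein of the skin cascade, was the kallikrein with the highest level per kilobase of exon in Klf4-transfected libraries (chr7:43690418-43695536, + strand). Its read counts were 0, 2, 5 and 0 with the empty vector and 431, 301, 518 and 510 with Klf4. Its level was 0.0356 ± 0.0480 CPM in control and 8.63 ± 1.48 CPM with Klf4 (SD, n = 4), a fitted log2 fold change of 7.80 (SE 0.26, adjusted p = 9.91e-17 by edgeR's quasi-likelihood test). The ratio of the summed counts per library size was 240, with a 95% interval of 116 to 599 from exact binomial limits that cover counting error only. The lowest Klf4-transfected library thus lay far above the highest control library. Klk14 made up 52.8%, 46.7%, 49.9% and 49.4% of the counts of Klk4 to Klk15 in Klf4-transfected replicates 1 to 4. An antisense gene, 2310002F09Rik, overlaps 22.6% of its exonic length and had no control counts and 3, 0, 0 and 5 counts with Klf4, far fewer than Klk14.

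Klk13, Klk12, Klk11 and Klk10 had no counts in any control library. For such genes a fold change was taken against a floor of 3 counts over the 4 control libraries, 0.0155 CPM. It is given as at least that value because of this floor. The counting error of the Klf4-transfected libraries is left out, which weighs most where their counts are few. Klk13, a kallikrein known from squamous epithelia (chr7:43712567-43727534, + strand), had 101, 102, 161 and 160 counts in Klf4-transfected replicates 1 to 4, a level of 2.58 ± 0.559 CPM (SD, n = 4). This was at least 167-fold higher (adjusted p = 1.89e-12 by edgeR). Klk11, also called hippostasin (chr7:43774604-43779263, + strand), had 133, 124, 123 and 142 counts, a level of 2.59 ± 0.179 CPM and at least 166-fold higher (adjusted p = 1.85e-12 by edgeR). The batch 2 libraries of Klk13 lay above those of batch 1, and Klk11 showed less spread.

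Klk10, also called normal epithelial cell-specific gene (chr7:43781035-43785410, + strand), had 56, 57, 89 and 77 counts with Klf4. Its level was 1.37 ± 0.262 CPM (SD, n = 4), at least 88.9-fold higher (adjusted p = 3.19e-10 by edgeR). Klk12, a trypsin-like kallikrein (chr7:43768897-43773585, + strand), had 64, 31, 86 and 70 counts, a level of 1.22 ± 0.396 CPM and at least 80.0-fold higher (adjusted p = 2.19e-09 by edgeR). The lowest of these libraries was Klf4-transfected replicate 2 of Klk12, still above all 4 of its controls. The fitted log2 fold changes, 9.996 for Klk13, 9.999 for Klk11, 9.09 for Klk10 and 8.93 for Klk12, depend on a small constant added inside edgeR and are no bounds. Per kilobase of exon, the level with Klf4 was 6.79 CPM for Klk14, 1.76 for Klk11, 1.12 for Klk13, 1.02 for Klk12 and 1.00 for Klk10. The order of the last 3 is closer than the spread between their libraries. No stretch of 50 bases of Klk10, Klk11, Klk12 or Klk13 transcripts occurred in another gene.

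Farther along the locus the kallikreins were too low for the test, but several had counts in all 4 Klf4-transfected libraries. Klk8 (neuropsin), which cuts synaptic and epidermal substrates, had 1 count over the control libraries and 12, 8, 28 and 33 with Klf4, a count ratio of 77.4 (95% interval 13.5 to 3095, counting error only). The antisense gene 2310002F09Rik, which had 3, 0, 0 and 5 counts with Klf4, overlaps 24.8% of the exonic length of Klk8. Klk5, the trypsin-like kallikrein that starts the skin cascade, had 2 control counts and 5, 14, 15 and 19 with Klf4, a ratio of 25.3 (6.67 to 215). Klk7, the chymotrypsin-like enzyme of that cascade, had no control counts and 8, 2, 7 and 12 with Klf4, at least 9.24-fold higher. Klk9 had no control counts and 7, 5, 10 and 4 with Klf4, at least 8.28-fold higher. For these 4 genes together the control libraries held 3, 0, 0 and 0 counts and the Klf4-transfected libraries 32, 29, 60 and 68, so the groups did not overlap. When no filter on low counts was set, 67 members were tested and 19 were called higher and none lower, beside 12.7% higher and 9.15% lower of 33674 genes. This added Klk5, Klk7, Klk8, Klk9, Prss23 and Prss57 to the 13.

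Klk6, a kallikrein of brain and skin that lies between Klk7 and Klk5, had no control counts and 3 with Klf4. Past Klk5 the locus held few counts in either group. Klk4, which degrades enamel matrix, had 0 and 4, and Klk15 had none. The 14 glandular kallikreins, which take up most of the 378.4 kb between the end of Klk5 and the end of Klk1, had a summed count of 2 to 3 in the control libraries and of 5 to 13 with Klf4, and none was tested. Of them, 6 had no count in any library. Klk1, tissue kallikrein, which releases kinins from kininogen, had no control counts and 2, 2, 3 and 3 with Klf4, at least 3.19-fold higher, and Klk1b24 had 7 control counts and 13 with Klf4. These genes are near copies, with 10.1% to 33.9% of their 50-base stretches shared with another gene, so their counts are uncertain.

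**Figure D2:**
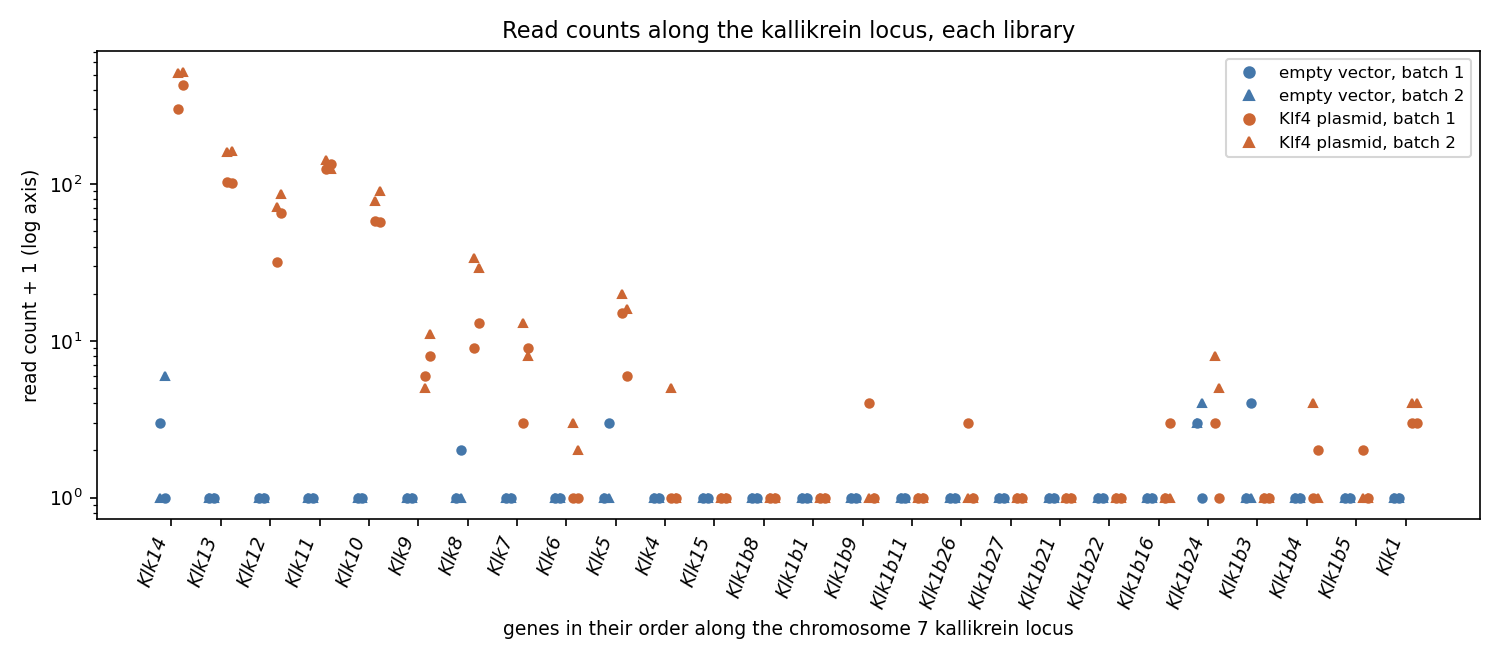
Read counts plus 1 on a log axis for the 26 kallikreins in their order along chromosome 7, for each of the 8 libraries. Klf4-transfected libraries lie above all control libraries from Klk14 to Klk5, leaving aside Klk6, and both groups are near the bottom from Klk4 to Klk1.

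Genes around the locus that are not kallikreins moved in both directions. Within 300 kb on either side of it, 24 other genes were tested, of which 9 rose, 3 fell and 12 were not called. Over all tested genes 21.1% were called higher and 15.5% lower. Ctu1, the tRNA-thiolating enzyme gene just before Klk14, had 2126 control counts and 2122 with Klf4 (log2 fold change -0.07, adjusted p = 0.477 by edgeR). Farther out, Lim2, a lens membrane protein gene, had no control counts and 154 with Klf4, and Siglecg, a lectin receptor gene of B cells, had none and 86. Both were called higher, and both entered the test through the Klf4-transfected libraries alone. Vsig10l, with all control libraries past the filter, went from 1781 to 4495 counts (log2 fold change 1.27, adjusted p = 1.62e-12 by edgeR). These neighbours were chosen after their values were seen.

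Among the membrane-anchored proteases, St14 changed the most and 3 others rose by less than 2-fold. St14 encodes matriptase, the surface protease of epithelia that activates prostasin, the hepatocyte growth factor precursor and the receptor PAR2 (chr9:31089402-31131853, - strand). It stood at 0.212, 0.267, 0.162 and 0.207 CPM in control replicates 1 to 4 and at 5.96, 5.88, 5.44 and 7.22 CPM with Klf4. The means were 0.212 ± 0.0429 and 6.12 ± 0.768 CPM (SD, n = 4), 28.9-fold apart, with a log2 fold change of 4.84 (SE 0.18, adjusted p = 1.10e-15 by edgeR). All 4 Klf4-transfected libraries were far above all 4 controls, and per kilobase of exon St14 reached 0.802 CPM with Klf4, below the 5 called kallikreins.

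The other matriptase-like genes were already detected in control cells. Tmprss9 (polyserase-1), a protease with several serine protease domains in 1 chain (chr10:80871848-80899492, + strand), had 31, 39, 44 and 42 control counts and 88, 58, 71 and 93 with Klf4. It rose from 0.806 ± 0.105 to 1.52 ± 0.244 CPM (log2 fold change 0.92, SE 0.20, adjusted p = 0.000696 by edgeR). Tmprss6 (matriptase-2), which lowers hepcidin in liver, stood at 1.13, 1.09, 0.791 and 0.518 CPM in control and 1.32, 1.13, 1.24 and 1.08 CPM with Klf4, and was not called (log2 fold change 0.46, SE 0.22, adjusted p = 0.102). Tmprss7 (matriptase-3) stood at 1.21, 1.79, 1.22 and 1.24 CPM in control and 1.28, 0.994, 1.06 and 0.777 CPM with Klf4, and was not called either (-0.41, SE 0.20, adjusted p = 0.118). In both of these the groups of libraries overlapped.

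Of the hepsin subfamily 3 of 7 genes were tested and 2 rose. Hpn encodes hepsin, a surface protease known from hepatocytes (chr7:31098725-31115290, - strand), and had 35, 15, 26 and 36 control counts and 56, 41, 53 and 85 with Klf4. Its mean was 0.581 ± 0.209 CPM in control and 1.15 ± 0.315 CPM with Klf4 (SD, n = 4), with a log2 fold change of 0.99 (SE 0.26, adjusted p = 0.00486 by edgeR). Tmprss4, a protease raised in several carcinomas (chr9:45172726-45204092, - strand), had 27, 25, 20 and 18 control counts and 39, 57, 46 and 40 with Klf4, which is 0.466 ± 0.0933 and 0.912 ± 0.238 CPM (0.97, SE 0.26, adjusted p = 0.00495). In these 2 genes the lowest Klf4-transfected library was close to the highest control library. Tmprss2, which primes viral envelope proteins and is regulated by androgen in prostate, stood at 4.06, 4.56, 2.88 and 2.63 CPM in control and 3.64, 4.66, 2.80 and 2.92 CPM with Klf4 (-0.01, SE 0.12, adjusted p = 0.97). Its batch 1 libraries lay above its batch 2 libraries in both groups. Tmprss15 (enteropeptidase, the activator of trypsinogen) had 10 counts in each group, Tmprss3, a protease needed for hearing, had 18 and 23, and Tmprss5 (spinesin) had 21 and 27, all below the filter. The summed count of the 7 Tmprss11 genes was 0 to 6 with the empty vector and 0 to 2 with Klf4, and Tmprss12 had none.

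Of the Prss genes other than the trypsinogens, 8 of 37 were tested, 4 rose and 4 were not called. Prss32, a tryptase-like gene (chr17:23843855-23859779, + strand), lies in a cluster of 7 Prss genes on chromosome 17 that spans 212.6 kb. It had 0, 0, 2 and 1 control counts and 80, 51, 96 and 101 with Klf4, from 0.0153 ± 0.0195 to 1.60 ± 0.354 CPM (SD, n = 4). The log2 fold change was 6.49 (SE 0.43, adjusted p = 2.89e-11 by edgeR). Prss32 entered the test through the Klf4-transfected libraries alone. By counts the ratio was 104.5 (95% interval 35.4 to 509, counting error only). The 6 other genes of the cluster had a summed count of 5 to 15 with the empty vector and of 5 to 19 with Klf4, and only Prss41 (testis serine protease) among them was tested. It stood at 0.151 ± 0.0974 CPM in control and 0.204 ± 0.146 CPM with Klf4 (log2 fold change 0.40, SE 0.52, adjusted p = 0.61). Exons of other genes overlap 33.0% of the exonic length of Prss32, and the antisense gene Gm15947 there had no control counts and 4, 3, 2 and 0 with Klf4.

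The other Prss genes that rose lie on separate chromosomes. Prss56, a secreted protease in which mutations shorten the eye (chr1:87183313-87188405, + strand), had 4, 12, 3 and 5 control counts and 50, 50, 55 and 79 with Klf4. This was 0.124 ± 0.0835 and 1.15 ± 0.236 CPM, 9.31-fold apart (log2 fold change 3.19, SE 0.35, adjusted p = 1.51e-07 by edgeR). Prss35, a protease-like protein without the catalytic serine, known from ovary (chr9:86743649-86758443, + strand), stood at 0.956, 1.09, 1.28 and 1.39 CPM in control and at 3.97, 4.59, 6.83 and 6.09 CPM with Klf4. It was the most changed of the members that were well detected in control cells, 4.56-fold (2.18, SE 0.13, adjusted p = 2.83e-12). Prss12 (neurotrypsin), a synaptic protease that cuts agrin (chr3:123446913-123506597, + strand), had 12, 14, 12 and 7 control counts and 41, 21, 19 and 19 with Klf4 (1.07, SE 0.34, adjusted p = 0.0167). The call of Prss12 rested on the first replicates, since it was lost without control replicate 1 (0.98, adjusted p = 0.0552) and without Klf4-transfected replicate 1 (0.83, adjusted p = 0.114).

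The 3 Prss genes with the highest CPM in control libraries were not called. Prss53 (polyserase-3) stood at 68.8, 70.9, 44.1 and 48.5 CPM in control and 64.1, 68.3, 41.5 and 47.3 CPM with Klf4 (log2 fold change -0.07, SE 0.04, adjusted p = 0.22 by edgeR), and was the highest member per kilobase of exon, at 27.2 and 25.9 CPM. It was called lower when Klf4-transfected replicate 4 was left out (-0.11, adjusted p = 0.0485), and 84.0% of its exonic length overlaps other genes, mainly Gm21974 on the same strand. Gm21974 itself had 2 control counts and none with Klf4. How reads of the shared stretch were assigned was not tested. Prss36 (polyserase-2) lay between 7.75 and 8.44 CPM in control and between 7.78 and 7.93 CPM with Klf4 (-0.03, SE 0.07, adjusted p = 0.795). Prss16, the thymus-specific serine protease, stood at 5.33, 4.97, 3.02 and 3.79 CPM in control and 5.21, 4.46, 3.86 and 4.10 CPM with Klf4 (0.06, SE 0.11, adjusted p = 0.726). Prss53 and Prss16 were higher in batch 1 than in batch 2 in both groups.

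Below the filter, Prss23, a secreted protease of ovary and vessel wall, had no control counts and 13, 4, 8 and 13 with Klf4, at least 12.1-fold higher. Prss57 had 20 and 57 counts (ratio 2.72, 95% interval 1.61 to 4.79, counting error only), with 40.7% of its exonic length under other genes, mainly Fstl3. Prss8 (prostasin), the membrane-linked partner of matriptase in epithelia, had 17 and 32 counts, a ratio of 1.80 with an interval of 0.970 to 3.45, so a difference was not detectable at this depth. Of the testis proteases, Prss42 had 6 and 15 counts, Prss45 had 4 and 17 and Prss50 had 9 and 20. Prss1, Prss2 and Prss3, the trypsinogens, had no counts in any of the 8 libraries. In all, 51 members had fewer than 20 counts over the 8 libraries.

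**Figure D3:**
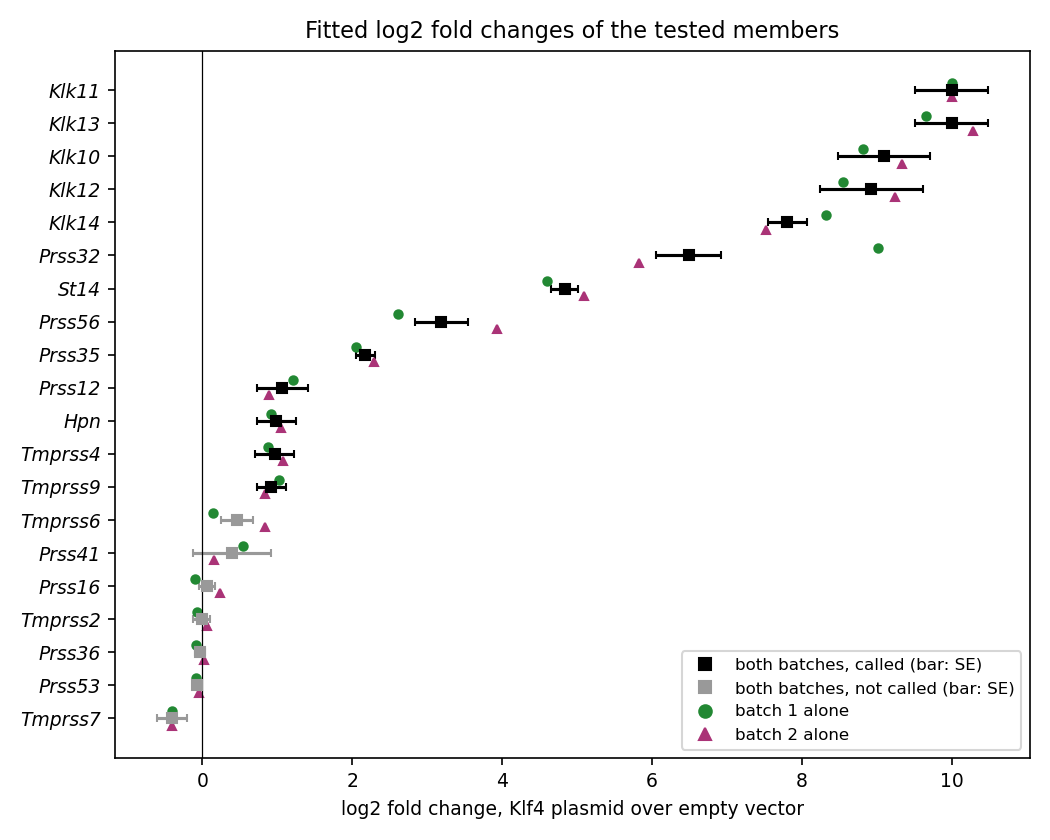
Fitted log2 fold changes of the 20 tested members with Klf4 over empty vector, with bars of 1 SE, and the values within batch 1 and batch 2 alone. The 13 called genes lie to the right of 0 in both batches, and the spread between the batches is widest for genes with few control counts.

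The 13 called members had the same direction in both batches. Fitted alone, with 2 libraries against 2, batch 1 called 10 members higher (15.8% of all tested genes) and batch 2 called 12 (19.7%). Batch 1 alone did not call Hpn, Tmprss4 or Prss12 (adjusted p = 0.0814, 0.0822 and 0.0539 by edgeR). Batch 2 alone did not call Prss12 (adjusted p = 0.254 by edgeR). St14 had 4.60 in batch 1 and 5.09 in batch 2, Klk14 8.32 and 7.52, Prss35 2.05 and 2.29, Hpn 0.92 and 1.05, Tmprss4 0.87 and 1.08, and Tmprss9 1.03 and 0.83. The widest gap was that of Prss32, with 9.01 and 5.83, where batch 1 had no control counts. A test of the difference between batches called no member. It called 0.766% of all tested genes, so none among 20 tested members is near that share. At an unadjusted p under 0.05 by edgeR it gave no member, beside 1942 of 18266 genes. For Klk10, Klk11, Klk12 and Klk13, with no control counts in either batch, the test could not show a difference. Klf4 itself differed, at 6.78 in batch 1 and 7.17 in batch 2 (adjusted p = 0.0057).

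A list of 34 known inhibitors, receptors and substrates of these proteases shows what else of the system MIN6 cells expressed. Of these, 19 were tested, 15 rose, 1 fell and 3 were not called, beside 21.1% higher and 15.5% lower over all genes. The filter bears on this count too, as 4 of the 19 had no control library past it. Of the 13 with all 4 control libraries past it, 10 rose and 1 fell, beside 18.1% and 17.4% of such genes. The median log2 fold change was 0.48 over the 19 and 0.35 over the 13. The list was chosen with earlier results of these data known, so these shares describe it and are no test of enrichment. Both Kunitz inhibitors of matriptase and hepsin rose. Spint1 (HAI-1) went from 4.74 ± 1.18 to 7.65 ± 1.72 CPM in means of 4 libraries with their SD (log2 fold change 0.69, SE 0.09, adjusted p = 2.93e-06 by edgeR), and Spint2 (HAI-2) from 67.9 ± 6.49 to 85.0 ± 5.88 CPM (0.33, SE 0.03, adjusted p = 4.16e-08). Both inhibitors were well detected in control cells, and their fold changes were smaller than that of St14. Serpina3n, a serpin, rose by 0.21 (SE 0.08, adjusted p = 0.0363), a call lost with DESeq2 (adjusted p = 0.0689), with no batch term (adjusted p = 0.0776), with no filter on low counts (adjusted p = 0.0873), and without control replicate 1 or 2 or Klf4-transfected replicate 1, 2 or 4 (adjusted p = 0.0566 to 0.144). Spink5 (LEKTI), the skin inhibitor of kallikreins, had 7 control counts and 8 with Klf4 and was not tested.

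Among receptors, F2rl1 (PAR2), which is opened by trypsin-like proteases, went from 14.3 ± 0.629 to 19.97 ± 1.14 CPM (log2 fold change 0.48, SE 0.06, adjusted p = 3.49e-07 by edgeR). F2r (PAR1), the thrombin receptor, was the gene that fell, from 18.8 ± 1.62 to 16.4 ± 2.24 CPM (-0.20, SE 0.06, adjusted p = 0.008), a call lost with no batch term (adjusted p = 0.182). Bdkrb2, the kinin B2 receptor, went from 30 to 351 summed counts (3.45, SE 0.30, adjusted p = 3.02e-09). Met, the receptor of hepatocyte growth factor, went from 1 to 178 counts (adjusted p = 3.40e-09 by edgeR). It entered the test through the Klf4-transfected libraries alone. Mst1r, the receptor of macrophage-stimulating protein, went from 22 to 191 (3.02, SE 0.36, adjusted p = 3.95e-07 by edgeR). Of the ligands of Met and Mst1r, Mst1 was not called (-0.42) and Hgf had 1 and 3 counts. Hgfac, the activator of hepatocyte growth factor, itself a serine protease, went from 38.4 ± 3.89 to 42.8 ± 5.95 CPM (0.15, SE 0.05, adjusted p = 0.022), a call lost with no batch term (adjusted p = 0.307) and without control replicate 2 or 3 or Klf4-transfected replicate 1, 2 or 4 (adjusted p = 0.0525 to 0.163).

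Some genes of the list encode proteins that these enzymes cut. Cdsn (corneodesmosin), cut by KLK5 and KLK7 in shedding skin, went from 2.19 ± 0.535 to 20.7 ± 3.11 CPM (log2 fold change 3.24, SE 0.09, adjusted p = 3.13e-18 by edgeR). Dsg1b, a desmoglein, went from 4 to 3668 summed counts and Dsg1a from 8 to 275, both called higher, although these entered the test through the Klf4-transfected libraries alone and are near copies whose reads may be split between them. The sodium channel subunits, known to be opened by prostasin and matriptase, did not move alike. Scnn1a rose from 1.36 ± 0.395 to 5.68 ± 0.0737 CPM (2.07, SE 0.14, adjusted p = 2.66e-11) and Scnn1g from 0.620 ± 0.136 to 1.25 ± 0.107 CPM (1.01, SE 0.22, adjusted p = 0.000874), whereas Scnn1b was not called (-0.06, adjusted p = 0.368). Epcam, an adhesion protein cut by matriptase, rose by 0.35 (SE 0.07, adjusted p = 0.000331) and Tmeff1 by 0.32 (SE 0.08, adjusted p = 0.00178), both lost with no batch term (adjusted p = 0.184 and 0.413). Cdcp1, a surface protein cut by matriptase, was not called (0.39).

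**Figure D4:**
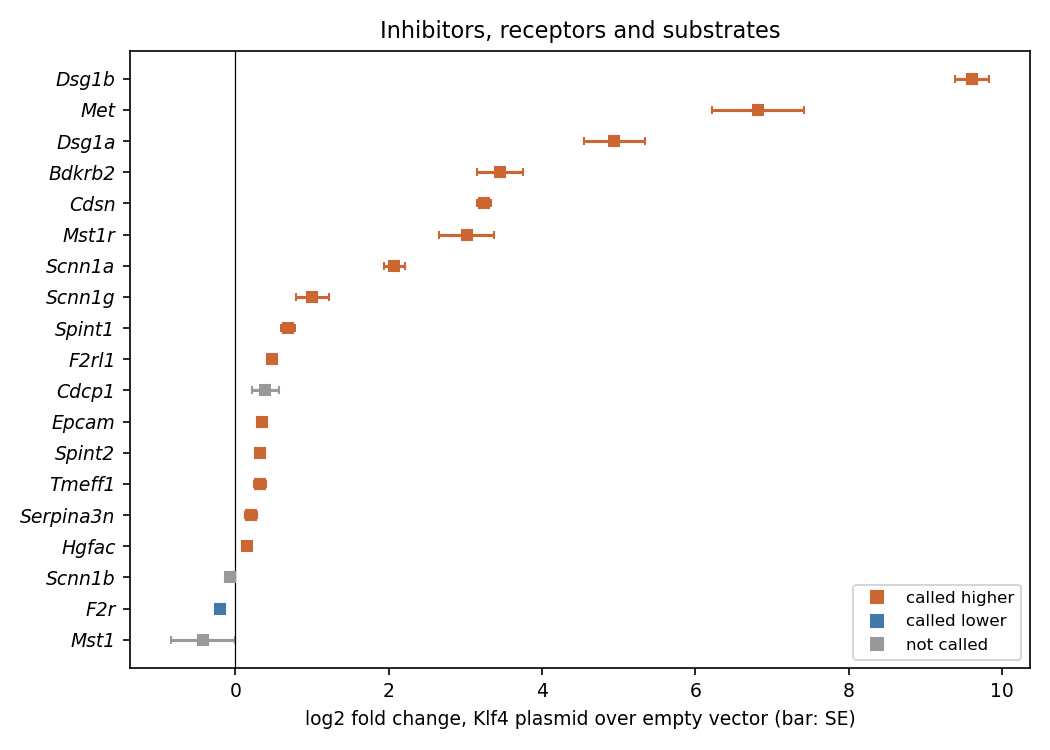
Log2 fold changes with Klf4 over empty vector of the 19 tested inhibitors, receptors and substrates, with bars of 1 SE. Of these, 15 were called higher and F2r alone lower, and the values of Spint1 and Spint2 lie well below those of Cdsn and Dsg1b.

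Other epithelial and stromal markers moved in the same libraries. The marker lists were also chosen with earlier results of these data known. Of 10 keratinocyte markers 6 were tested and 5 rose (Krt14, Krtdap, Dsg3, Sbsn and Lor), with a sum of 7.83 to 9.07 CPM in control and 98.2 to 133.6 CPM in Klf4-transfected libraries, while Ivl and Trp63 had no counts. The keratins Krt5, Krt1 and Krt10 of this list were not called higher. Of 5 fibroblast markers 3 were tested and all 3 rose (Dcn, Pdgfra and Col1a1), with a sum of 1.47 to 2.57 and 19.6 to 25.9 CPM, and Lum had no counts. No control library passed the filter for 3 of the 6 tested keratinocyte and 2 of the 3 tested fibroblast markers. Of all such genes 99.3% were called higher, beside 21.1% of all tested genes. Of 7 immune and mast cell markers 3 were tested and Kit rose, with a sum of 13.5 to 18.7 and 16.4 to 21.01 CPM. Their part in the rise of the kallikreins, St14, Cdsn and the desmogleins was not tested.

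Another list held 43 serine proteases of the chymotrypsin fold outside these names. Of these, 16 were tested, 6 rose, none fell (none lower at an unadjusted p under 0.05 by edgeR) and 10 were not called. Over all genes the shares were the same 21.1% higher and 15.5% lower. Only 7 of the 16 had all 4 control libraries past the filter, of which 3 rose and 4 were not called, beside 18.1% higher among such genes. Tpsg1, the membrane-anchored tryptase gamma, had the largest change of the tested genes of the list, from 6 to 1168 summed counts. Its level went from 0.0311 ± 0.0360 to 5.72 ± 1.72 CPM (log2 fold change 7.41, SE 0.29, adjusted p = 1.61e-15 by edgeR). Tpsg1 entered the test through the Klf4-transfected libraries alone. Prtn3 (proteinase 3 of neutrophils) rose from 1.11 ± 0.159 to 3.91 ± 0.426 CPM (1.81, SE 0.14, adjusted p = 6.83e-10). Corin, the activator of atrial natriuretic peptide, rose by 2.33 (SE 0.43, adjusted p = 0.000161), F2 (prothrombin) by 1.03 (SE 0.31, adjusted p = 0.0103) and Plat (tissue plasminogen activator), at 37.4 ± 7.76 CPM in control, by 0.14 (SE 0.04, adjusted p = 0.00955), and Hgfac, given above, was the sixth. The call of F2 was lost without control replicate 3 (0.72, adjusted p = 0.0539) or Klf4-transfected replicate 3 (0.86, adjusted p = 0.055). That of Plat was lost with no batch term (adjusted p = 0.562) and without control replicate 3 or 4 or Klf4-transfected replicate 4 (adjusted p = 0.0507 to 0.0601). The median log2 fold change was 0.32 over the 16 and 0.14 over the 7. This list too was chosen with earlier results of these data known.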

How the data were processed

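Whole-number counts per gene, 1 column per library, were used as deposited by the authors, with no normalization. Per the submitters' processing notes, FastQC, STAR, featureCounts and edgeR were used with build mm10, and the name of the deposited table speaks of cutadapt trimming. Versions and the strand setting are not given in the sources used here, so counts of genes that overlap another gene are uncertain. All 55536 identifiers and symbols were those of GENCODE M21, the source of coordinates and exonic lengths.

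Genes were kept by filterByExpr (minimum count 10), which left 18266, and scaled with TMM factors of 0.996 to 1.01. A model of batch and plasmid was fitted in edgeR 4.0.16 (R 4.3.3) to all 8 libraries, and called genes had a Benjamini-Hochberg adjusted p under 0.05 over all tested genes. CPM values, SE and ratios were computed here from the counts. Between replicates of a group, chi-square per degree of freedom over genes was 4.23 or more, so no library was a copy of another. The procedure was tested on simulated data, with changes set only in genes above a minimum mean count. That simulation does not cover genes with few or no control counts, such as Klk10 to Klk14 and Prss32.

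Members and lists were chosen with earlier results of these data known. Named were all called members, tested members of at least 1 CPM, untested ones with at least 20 counts, and called genes of the lists. Other fits used DESeq2 1.42.0, limma-voom (limma 3.58.1), other filters, factors and thresholds, no batch term, a replicate block and the omission of each library. Promoters are those of RefSeq, GRCm38.p6, with windows found for 68 members and not for 17.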

Additional observations from a re-analysis of the deposited data

Results flagged for a closer look

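In 38 groups of 4 libraries checked, 3 had a library set far apart from the other 3, where chance alone flags about 1 in 20 groups (1.9 expected). Tmprss7 stood at 1.79 CPM in control replicate 2 and at 1.21 to 1.24 CPM in the other control libraries, and without that library its log2 fold change was -0.30 (adjusted p = 0.312 by edgeR). Prss41 stood at 0.297 CPM in control replicate 1 and at 0.101 to 0.104 CPM in the others, and without that library its log2 fold change was 0.73 (adjusted p = 0.401 by edgeR). Neither gene was called with all 8 libraries. The total count of Klf4-transfected replicate 2 was 45417853, against 51891997 to 52731176 in the other libraries of its group.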

How the results depend on the processing

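Calls at low counts limit these results, since 65 members were too low for the test. With a batch term 6684 genes changed, and with none 4116, and the same 13 members were called either way, as with DESeq2, limma-voom and other factors. With a filter of 1 CPM in at least 4 libraries, 8 members were called higher, because Hpn, Klk12, Prss12, Prss56 and Tmprss4 were no longer tested. At an adjusted p under 0.01, 12 members were higher, without Prss12. With the replicate block in place of batch, 6284 genes changed, with 13 members higher and 0 lower, 14 and 1 genes of the list of inhibitors, receptors and substrates, and 6 and 0 of the related proteases. The block ended the call of Serpina3n (adjusted p = 0.0572) and no other call of these named genes. Same-numbered libraries correlated in their deviations from the group means at 0.491 to 0.645, but from the means within a batch only at -0.0532 in batch 1 and 0.0872 in batch 2, so the numbers were seen to pair libraries through the batch alone. With no batch term, 11 genes of the list of inhibitors, receptors and substrates were higher and 0 lower (Serpina3n, Epcam, Hgfac, Tmeff1 and F2r lost), and 4 related proteases higher (Plat and Hgfac lost). Leaving out each library in turn gave 5889 to 7074 genes, 13 to 15 members higher (Prss12 lost without replicate 1 of either group, Klk5 or Klk8 added without 6 of the libraries) and 0 to 1 lower (Prss53 without Klf4-transfected replicate 4), 13 to 16 and 1 to 1 in the list of inhibitors, receptors and substrates, and 4 to 7 and 0 to 1 among related proteases (Cela1 without control replicate 2, -0.39). Signs turned in 3 uncalled members: Prss36 had a log2 fold change of 0.00474 and Tmprss2 of 0.0264 with factors from genes of an average log2 CPM of at least 6, and Tmprss2 had 0.00226 with the filter at 1 CPM. As libraries were left out, Tmprss2 ranged from -0.082 to 0.072 and Prss16 from -0.041 to 0.13. The cause was not tested. The median log2 fold change of all genes lay between -0.03 and 0.02 under these settings.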
